A study of Canis lupus familiaris with 4 samples.

Results

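The 8 genes described here encode integrin subunits of epithelial cells: the alpha subunits ITGA2, ITGA3, ITGA6 and ITGAV and the beta subunits ITGB1, ITGB4, ITGB6 and ITGB8. They were found by their gene symbol in the platform annotation, which gave 23 of 42924 probe sets and 8 of 15115 genes. The set was chosen by results of these same arrays, among them the low ITGA6 intensity in the array labelled WT hypoxia against that labelled WT normoxia, so all differences are given as descriptions without a test. The arrays hold RNA of MDCKII cells, an established epithelial line from dog kidney, labelled either WT or KD (knockdown) for HIF1A, the oxygen-regulated subunit of the transcription factor HIF-1. All cells first spent 24 h in normoxia. They then spent another 24 h in hypoxia or normoxia, which gave the groups KD hypoxia, WT hypoxia, KD normoxia and WT normoxia with 1 array each. The sources used here give neither the way the knockdown was made, nor whether it is 1 clone, nor the oxygen level.

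Integrins are receptors of 1 alpha and 1 beta chain that span the plasma membrane, bind the extracellular matrix outside the cell and link to actin or keratin filaments inside it. ITGB1 pairs with ITGA2 to bind collagen, and with ITGA3 or ITGA6 to bind laminin. ITGA6 also pairs with ITGB4, the laminin receptor that anchors keratin filaments in hemidesmosomes at the base of epithelia. ITGAV pairs with ITGB6 or ITGB8 to bind latent TGF-beta, and with ITGB1 and other beta chains to bind fibronectin or vitronectin. In MDCK cells, laminin and collagen receptors of this kind are known for their part in attachment, spreading and the orientation of the apical surface.

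The values are the authors' deposited intensities per probe set, a brightness on a linear scale. Differences are between log2(intensity + 16) values, which understates the change of dim probe sets. An intensity of 46.3, the median over all probe sets and arrays, is called the floor. A gene is represented by its brightest probe set, and 9834 genes reached the floor in at least 1 array. Since no group was repeated, no difference can be set against the spread between replicates, and 4 arrays limit the precision of every value. The central 95% of these genes lay between -0.62 and 0.64 for WT hypoxia minus WT normoxia, and within -0.71 to 0.69 in the other 3 pairs that differ by 1 label. For KD hypoxia minus WT normoxia it ran from -0.69 to 0.75.

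HIF1A itself went against the knockdown label. Its brightest probe set read 625 in the array labelled KD hypoxia and 675 in that labelled WT hypoxia, against 3435 in that labelled KD normoxia and 3651 in that labelled WT normoxia. HIF1A mRNA thus differed by the oxygen label and hardly by the genotype label. ADM, a vasodilator peptide widely used as a hypoxia marker, read 2017 in KD hypoxia and 941 in WT hypoxia, against 4486 in KD normoxia and 563 in WT normoxia. PDK1, a HIF-1 target that restrains pyruvate oxidation, read 927 in KD hypoxia and 455 in WT hypoxia, against 3568 in KD normoxia and 488 in WT normoxia. The brightest probe sets of the hypoxia markers CA9 (105 to 112) and VEGFA (2281 to 2428) were nearly level over the 4 arrays. A second CA9 probe set ran from 57.1 to 72.9. A dimmer VEGFA probe set was not level, at 60.4 in KD hypoxia and 25.4 in WT hypoxia, against 81.7 in KD normoxia and 51.8 in WT normoxia. If the labels KD normoxia and WT hypoxia changed places, HIF1A would be low in both KD arrays, and ADM and PDK1 would be higher in hypoxia than in normoxia in both genotypes. Every group name below is therefore that of the array's label only. Of 10 kidney epithelial markers, 8 were above the floor in all 4 arrays, with a summed intensity from 31776 to 33764. The E-cadherin gene CDH1 and the kidney transcription factor gene PAX8 were below it in all 4. All 7 fibroblast markers were below the floor in every array, with sums from 89.0 to 120, while 2 of 5 endothelial markers (KDR and CDH5) and 2 of 6 leukocyte markers (ITGB2 and CD68) were above it in all 4. Endothelial sums ran from 195 to 296 and leukocyte sums from 393 to 477.

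ITGA6, the laminin-binding alpha chain, was the member with by far the widest range. Its brightest probe set read 337 in the array labelled KD hypoxia and 331 in that labelled WT hypoxia, against 1276 in that labelled KD normoxia and 1389 in that labelled WT normoxia. Both arrays labelled hypoxia were low, nearly equal to each other, and apart from both labelled normoxia. The log2 difference was -2.02 for WT hypoxia minus WT normoxia, which is 4.05-fold lower, and -1.87 for KD hypoxia minus KD normoxia, which is 3.66-fold lower. These pairs share no array. Between genotype labels ITGA6 differed by 0.02 in hypoxia and by -0.12 in normoxia. Summed kidney epithelial markers stood at 33764 in KD hypoxia and 33612 in WT hypoxia, against 31776 in KD normoxia and 32101 in WT normoxia. That sum was slightly higher where ITGA6 was low, but EPCAM and KRT18, its brightest markers, weigh most in it. Of the 8 markers above the floor, 4 were higher and 4 lower in each hypoxia pair, with medians of -0.004 in KD and 0.002 in WT. The part of these markers in the result was not tested. In such bulk RNA, fewer cells that express a gene and less RNA per cell cannot be told apart.

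The other ITGA6 probe sets were read as a check on the brightest. A second read 106 in KD hypoxia and 122 in WT hypoxia, against 584 in KD normoxia and 672 in WT normoxia. Another read 58.7 in KD hypoxia and 64.7 in WT hypoxia, against 244 in KD normoxia and 272 in WT normoxia. Labelled hypoxia minus normoxia came to -2.30 in KD and -2.31 in WT for the second, and to -1.80 in KD and -1.83 in WT for the other. Thus 3 of 4 probe sets gave a difference of about the same size in both genotype labels, on different levels of brightness. The last was close to the floor, at 40.9 in KD hypoxia and 47.5 in WT hypoxia, against 75.2 in KD normoxia and 59.9 in WT normoxia. Its differences were smaller, -0.68 in KD and -0.26 in WT, with the same sign.

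**Figure D1:**
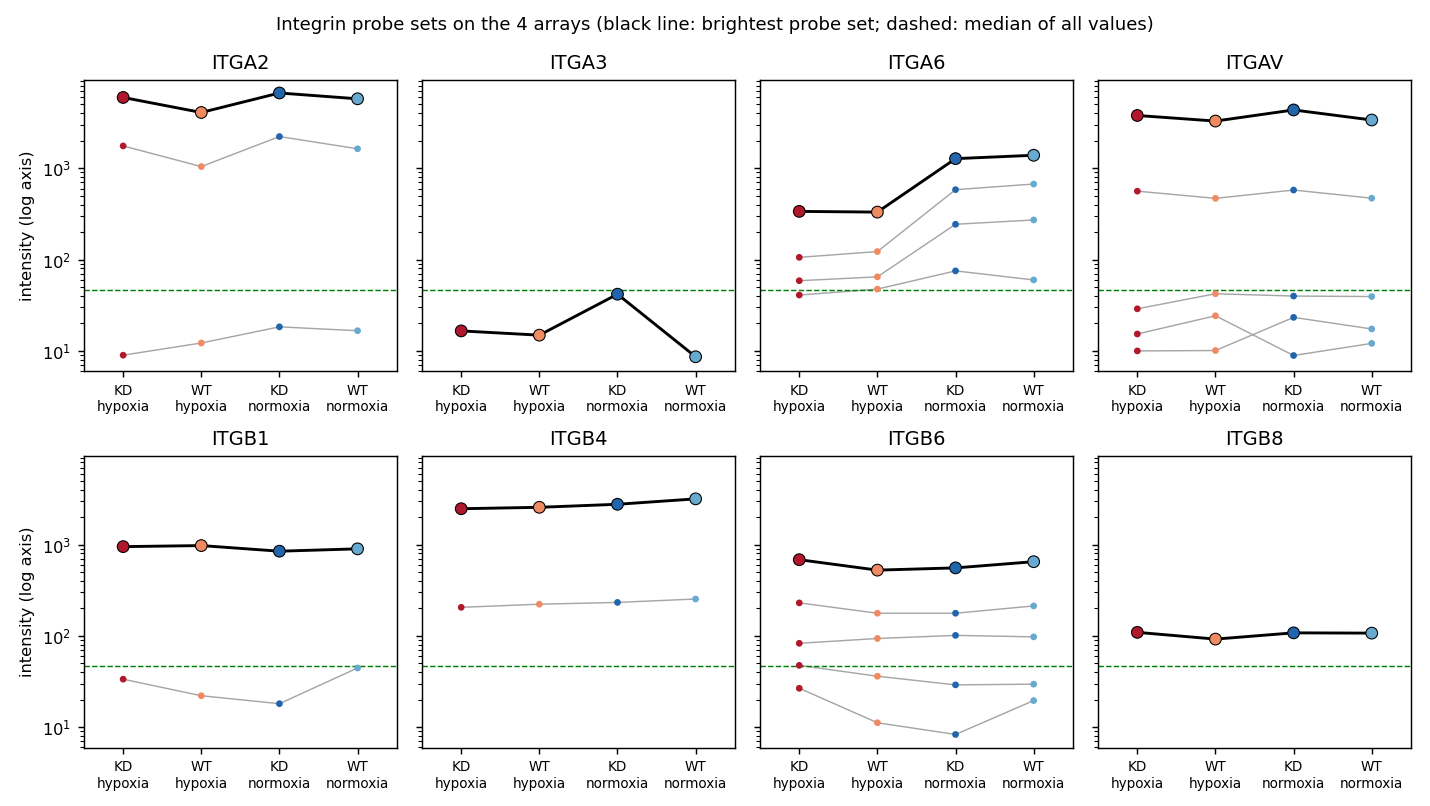
Intensity (log axis) of every probe set of the 8 integrin genes on the 4 arrays, named by their labels; the black line is the brightest probe set of the gene, grey lines are its others, and the dashed line is the floor at 46.3. ITGA6 is at 337 and 331 in the arrays labelled hypoxia, against 1276 and 1389 in those labelled normoxia, while the black lines of ITGB1, ITGB4 and ITGB8 are nearly level and ITGA3 stays below the floor.

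ITGB4, the beta chain that pairs with ITGA6 alone, was also lower in the arrays labelled hypoxia, at a far smaller size. Its widest gap, 0.20, lay between the 2 arrays labelled normoxia, and the gap from hypoxia to normoxia was 0.11. It read 2474 in KD hypoxia and 2565 in WT hypoxia, against 2768 in KD normoxia and 3173 in WT normoxia. Both arrays labelled hypoxia were below both labelled normoxia, with differences of -0.16 in KD and -0.31 in WT. A second ITGB4 probe set, at 206 in KD hypoxia and 223 in WT hypoxia, against 233 in KD normoxia and 254 in WT normoxia, gave -0.17 in KD and -0.18 in WT. These differences lay inside the central 95% of all genes. Of the 7 members above the floor, ITGA6 and ITGB4 were the 2 in which both arrays labelled hypoxia lay below both labelled normoxia, an order that 19.3% of the 9834 genes had.

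ITGB1, the common partner of ITGA2, ITGA3 and ITGA6, was nearly level. It read 951 in KD hypoxia and 977 in WT hypoxia, against 848 in KD normoxia and 900 in WT normoxia. The arrays labelled hypoxia were slightly higher, by 0.16 in KD and 0.12 in WT, an order that 22.8% of all genes had. The other ITGB1 probe set was below the floor in every array, and the median with it turned to -0.28 in WT. Neither partner chain of ITGA6 thus came near its difference, and that of ITGB1 had the opposite sign.

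ITGA2, the collagen-binding alpha chain, had the second widest range among the 7 members above the floor. It read 5970 in KD hypoxia and 4087 in WT hypoxia, against 6683 in KD normoxia and 5773 in WT normoxia. The array labelled WT hypoxia was the low one, and the other 3 lay closer together. KD minus WT was 0.54 in hypoxia and 0.21 in normoxia, and hypoxia minus normoxia was -0.16 in KD and -0.50 in WT. A second ITGA2 probe set read 1758 in KD hypoxia and 1044 in WT hypoxia, against 2228 in KD normoxia and 1636 in WT normoxia, the same order with somewhat larger differences. There KD minus WT was 0.74 in hypoxia and 0.44 in normoxia, and the value in hypoxia lay beyond the central 95% of all genes in that pair, which ended at 0.61. The remaining ITGA2 probe set was below the floor throughout.

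ITGAV, the alpha chain of fibronectin, vitronectin and latent TGF-beta receptors, was higher in the arrays labelled KD. It read 3790 in KD hypoxia and 3292 in WT hypoxia, against 4357 in KD normoxia and 3381 in WT normoxia. KD minus WT was 0.20 in hypoxia and 0.36 in normoxia. A second ITGAV probe set read 562 in KD hypoxia and 469 in WT hypoxia, against 578 in KD normoxia and 471 in WT normoxia, with differences of 0.25 and 0.29. Both probe sets thus put the arrays labelled KD above those labelled WT. The other 3 ITGAV probe sets were below the floor in every array, and the median over all 5 turned to -0.38 for KD minus WT in hypoxia.

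ITGB6, an epithelial partner of ITGAV in the activation of TGF-beta, was highest in the array labelled KD hypoxia. It read 684 in KD hypoxia and 526 in WT hypoxia, against 556 in KD normoxia and 651 in WT normoxia. Hypoxia minus normoxia was 0.29 in KD and -0.30 in WT, so the sign differed between the genotype labels. A second probe set gave almost the same values, 0.35 in KD and -0.25 in WT, from 230 in KD hypoxia and 177 in WT hypoxia, against 177 in KD normoxia and 213 in WT normoxia. Another did not follow, at 83.1 in KD hypoxia and 93.8 in WT hypoxia, against 101 in KD normoxia and 97.7 in WT normoxia, or -0.25 in KD and -0.05 in WT. Of the other 2, 1 reached the floor in the array labelled KD hypoxia alone and 1 in none.

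ITGB8, the other TGF-beta-activating partner of ITGAV, had 1 probe set. It read 109 in KD hypoxia and 92.3 in WT hypoxia, against 108 in KD normoxia and 107 in WT normoxia. The array labelled WT hypoxia was slightly low and the other 3 were alike, with 0.21 for KD minus WT in hypoxia and 0.01 in normoxia. With ITGA2, ITGAV and ITGB8, 3 of 7 members had both arrays labelled KD above both labelled WT, against 19.0% of all genes, and 0 had the reverse order, against 22.2%.

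ITGA3, the second laminin-binding alpha chain, could not be measured here. Its single probe set read 16.6 in KD hypoxia and 14.9 in WT hypoxia, against 41.8 in KD normoxia and 8.62 in WT normoxia. All 4 values were below the floor, so no difference is read from them.

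**Figure D2:**
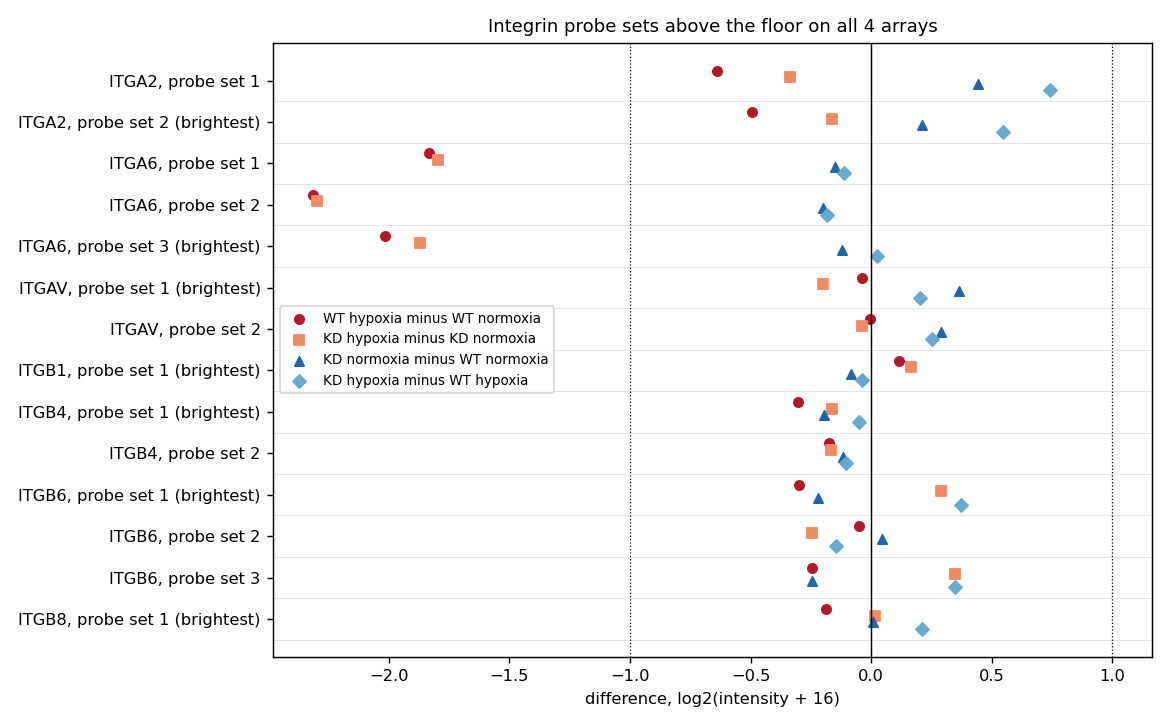
Log2 differences of the 14 integrin probe sets above the floor on all 4 arrays, in the 4 comparisons of array labels; dotted lines mark 2-fold. The 3 ITGA6 probe sets sit between -1.80 and -2.31 for labelled hypoxia minus normoxia, and every other point lies within 2-fold.

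Read as counts, 1 of 7 members was at least 2-fold lower in WT hypoxia than in WT normoxia, where 0.569% of 9834 genes were, and 0 were at least 2-fold higher, against 0.600%. In KD hypoxia against KD normoxia, 1 of 7 was at least 2-fold lower, against 0.997% of genes, and 0 higher, against 0.559%. In each case the member was ITGA6, which was the 9th lowest of all genes in the WT pair and the 18th lowest in the KD pair. None of the 7 differed 2-fold for KD minus WT. In hypoxia 0.519% of genes were higher and 0.356% lower by that measure, and in normoxia 0.854% higher and 0.325% lower. The pair that leaves out the arrays labelled KD normoxia and WT hypoxia, KD hypoxia minus WT normoxia, had ITGA6 at -1.99 (3.98-fold lower), the 8th lowest gene, as its 1 member past 2-fold, against 0.773% of genes. No member was at least 2-fold higher in that pair, against 1.02%.

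The median over the 7 members was -0.30 for WT hypoxia minus WT normoxia, beside 0.01 over all genes, and -0.16 for KD hypoxia minus KD normoxia, beside 0.02. In the WT pair 6 members were lower and 1 higher, and in the KD pair 4 were lower and 3 higher. Of all genes, 47.6% were lower in the WT pair and 47.5% in the KD pair. For KD minus WT the median was 0.20 in hypoxia, with 5 members higher and 2 lower, and -0.08 in normoxia, with 3 higher and 4 lower. The all-gene medians there were -0.01 in both, and 52.1% of all genes were lower in KD in hypoxia and 51.6% in normoxia. The hypoxia and genotype pairs share arrays, so they are not independent readings.

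The difference of the responses, taken as WT hypoxia minus WT normoxia less KD hypoxia minus KD normoxia, was small for ITGA6 at -0.15. It was -0.59 for ITGB6, -0.33 for ITGA2, 0.16 for ITGAV and between -0.20 and -0.05 for ITGB1, ITGB4 and ITGB8. No member reached 2-fold in either direction, where 0.875% of genes did so with a positive sign and 0.691% with a negative sign. The sign alone does not tell which genotype label had the larger change. With the labels KD normoxia and WT hypoxia exchanged, these values would stay, and the oxygen and genotype differences of every member would trade places. ITGA6 would then differ by -2.02 and -1.87 between KD and WT and hardly by oxygen.

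**Figure D3:**
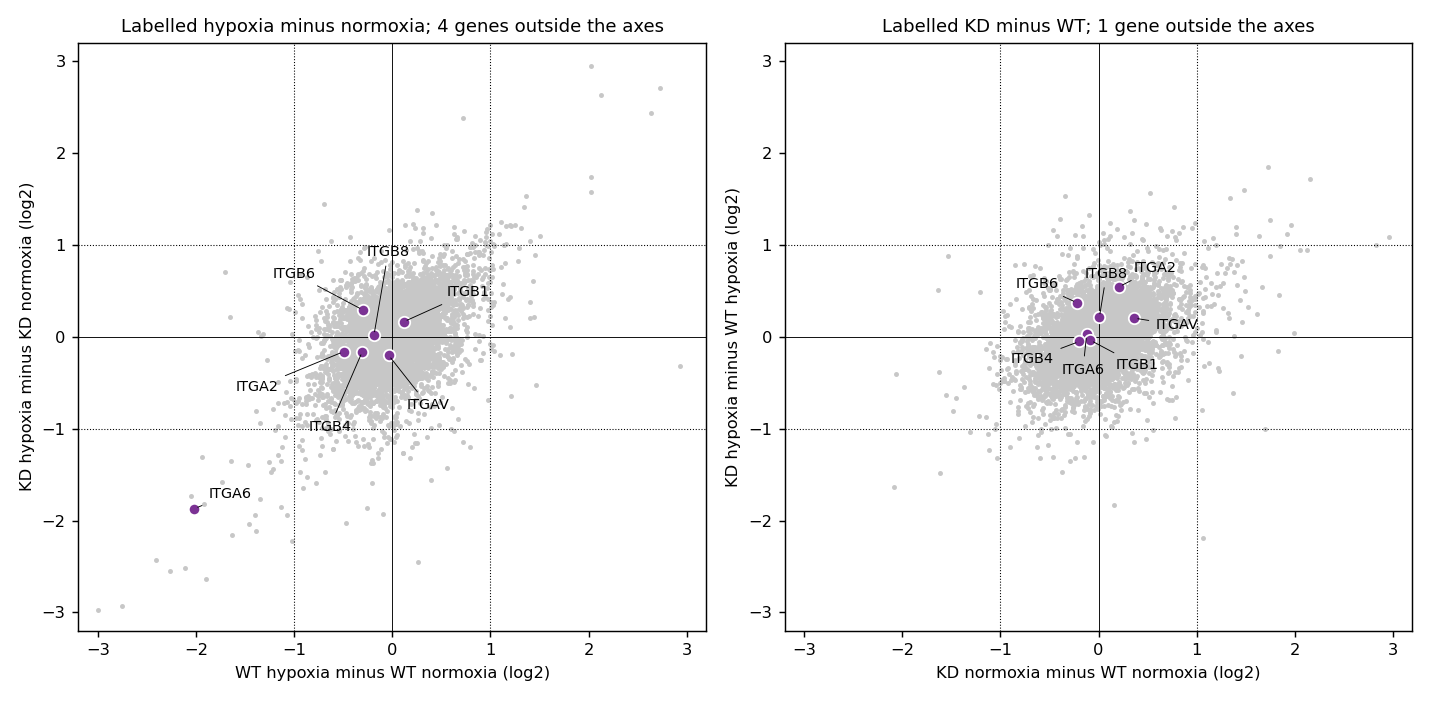
Log2 differences of the 9834 genes (grey) and the 7 measured integrins (purple). On the left, KD hypoxia minus KD normoxia (vertical) is set against WT hypoxia minus WT normoxia (horizontal); on the right, KD minus WT in hypoxia (vertical) is set against that in normoxia (horizontal). ITGA6 stands at -2.02 and -1.87 on the left and near 0 on the right, while the other 6 lie within the cloud on both sides.

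The genes with the most similar profiles were sought for the 2 members of widest range above the floor, among 8283 genes above the floor in all arrays, by the Euclidean distance of their centred log2 values over the 4 arrays. Closest to ITGA6 were SH3BP5 (distance 0.28), HIF1A (0.49), SFTA2 (0.55), CRYM (0.58) and FST (0.64). SH3BP5, which encodes a JNK- and RAB11-binding protein, read 560 in KD hypoxia and 679 in WT hypoxia, against 2023 in KD normoxia and 2619 in WT normoxia. HIF1A was therefore the second closest profile, with -2.43 in KD and -2.41 in WT beside -1.87 and -2.02 for ITGA6, and its part in the ITGA6 difference was not tested. FST, which encodes the activin antagonist follistatin, read 1455 in KD hypoxia and 847 in WT hypoxia, against 3632 in KD normoxia and 3288 in WT normoxia. Closest to ITGA2 were CBX5 (0.05), ALOX12 (0.06), CCP110 (0.07), LOC475097 (0.07) and ZBTB8OS (0.08), all of them lowest in the array labelled WT hypoxia. With 4 arrays many genes can share a profile, and the distances describe these arrays only.

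**Figure D4:**
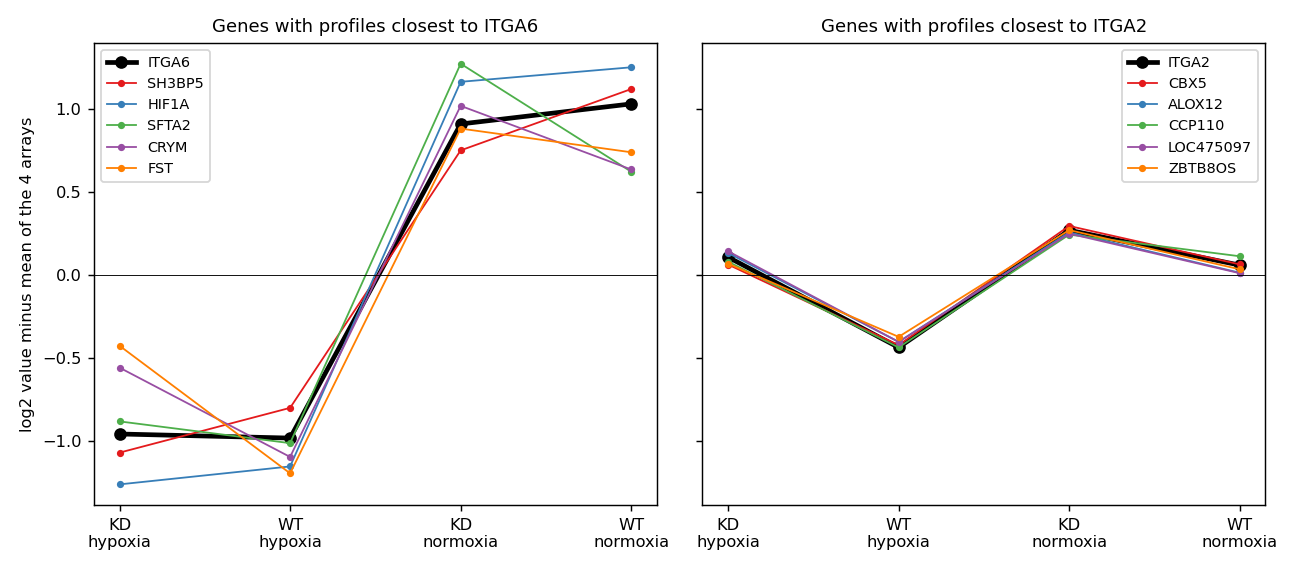
Log2 values minus their mean over the 4 arrays, for ITGA6 and ITGA2 (thick black) and the 5 genes closest to each. HIF1A and the other 4 lines near ITGA6 are low in both arrays labelled hypoxia and high in both labelled normoxia, and all lines near ITGA2 dip in the array labelled WT hypoxia.

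Of 18 other integrin subunits and integrin-like genes with a probe set, 9 reached the floor. None of them differed 2-fold in any of the 4 pairs, where 0.325% to 0.997% of all genes did in each direction. A count of 0 among 9 genes is close to those shares and does not set ITGA6 apart from them. ITGB5, which pairs with ITGAV to bind vitronectin, read 2243 in KD hypoxia and 2275 in WT hypoxia, against 2237 in KD normoxia and 2000 in WT normoxia, differing by 0.00 in KD and 0.18 in WT. ITGB3, another ITGAV partner, read 367 in KD hypoxia and 347 in WT hypoxia, against 316 in KD normoxia and 297 in WT normoxia, or 0.20 in KD and 0.21 in WT. ITGA1, another collagen-binding partner of ITGB1, differed by 0.18 in KD and 0.34 in WT. ITGA11, also a collagen-binding partner of ITGB1, read 67 in KD hypoxia and 106 in WT hypoxia, against 128 in KD normoxia and 93.0 in WT normoxia, or -0.80 in KD and 0.17 in WT. ITGAE was at -0.76 in KD and 0.06 in WT, but a second ITGAE probe set gave 0.31 in KD and 0.33 in WT.

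Among the ligands, laminin chains are those bound by ITGA6 and ITGA3. Of 8 chains above the floor, 0 were 2-fold different in either hypoxia pair, where 0.559% to 0.997% of all genes were in each direction. The medians of the chains were -0.11 in KD and -0.13 in WT. LAMA3, the alpha chain of laminin-332, read 2053 in KD hypoxia and 1573 in WT hypoxia, against 3670 in KD normoxia and 2296 in WT normoxia, so hypoxia minus normoxia was -0.83 in KD and -0.54 in WT. A second LAMA3 probe set gave -0.73 in KD and -0.47 in WT, so this chain was lower in the same arrays as ITGA6. Unlike ITGA6, LAMA3 also differed by genotype label, with KD minus WT at 0.38 in hypoxia and 0.67 in normoxia for the brightest probe set. LAMB3, the beta chain of laminin-332, read 196 in KD hypoxia and 252 in WT hypoxia, against 177 in KD normoxia and 404 in WT normoxia. That made -1.12 for KD minus WT in normoxia, while another LAMB3 probe set gave 0.14.

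Of 16 other matrix ligands above the floor, 9 were higher and 7 lower in the KD hypoxia pair (median 0.05), and 13 higher and 3 lower in the WT hypoxia pair (median 0.30). Among all genes, 47.5% were lower in the KD pair and 47.6% in the WT pair. COL4A1 and COL4A2, collagen IV chains of the basement membrane that ITGA2 and ITGA1 bind, were at 0.32 and 0.58 in KD and at 0.58 and 0.47 in WT. CCN2, a matricellular ligand, was at 0.68 in KD and 0.58 in WT. TGFBI, a secreted integrin ligand, read 435 in KD hypoxia and 210 in WT hypoxia, against 67.2 in KD normoxia and 20.4 in WT normoxia, the last below the floor. It was the 1 ligand of 16 past 2-fold in each hypoxia pair. Of all genes, 0.559% were at least 2-fold higher in the KD pair and 0.600% in the WT pair. FN1, the fibronectin bound by ITGAV integrins, was higher in KD by 0.49 in hypoxia and 0.61 in normoxia, although the other 3 FN1 probe sets gave -0.03 to 0.59 in hypoxia and -0.20 to 0.07 in normoxia. For KD minus WT, EDIL3 passed 2-fold in both pairs and TGFBI and FBLN5 in normoxia, named here after their values were seen. That is 1 of 16 ligands in hypoxia and 3 of 16 in normoxia, against 0.519% and 0.854% of all genes at least 2-fold higher. EDIL3 was under the floor in WT hypoxia and WT normoxia, and TGFBI in WT normoxia.

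Latent TGF-beta is the ligand of ITGAV with ITGB6 or ITGB8. Of 10 genes of that list above the floor, 0 differed 2-fold in any pair, where 0.325% to 0.997% of all genes did in each direction. TGFB2 read 1371 in KD hypoxia and 921 in WT hypoxia, against 1709 in KD normoxia and 889 in WT normoxia, higher in KD by 0.57 in hypoxia and 0.93 in normoxia. A second TGFB2 probe set gave 0.66 and 1.22. As for ITGAV, both arrays labelled KD were thus above both labelled WT for TGFB2. LTBP3, which encodes a latent TGF-beta binding protein, was at -0.41 in KD and -0.52 in WT for hypoxia minus normoxia.

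Hemidesmosome and tetraspanin genes encode membrane and cytoplasmic partners of the integrins. Of 11 above the floor, 0 passed 2-fold in any of the 4 pairs, where 0.325% to 0.997% of all genes did in each direction. A count of 0 among so few genes is close to those shares and is not read as a result, here and for the other short lists. CD151, the tetraspanin that binds ITGA3 and ITGA6, was at 0.10 in KD and 0.05 in WT, and PLEC, the plectin gene that ties ITGB4 to keratin, at -0.46 in KD and -0.25 in WT. TSPAN8 had the largest hypoxia minus normoxia differences of this list in both genotype labels, at 7749 in KD hypoxia and 7021 in WT hypoxia, against 4862 in KD normoxia and 4698 in WT normoxia, or 0.67 and 0.58. A second TSPAN8 probe set gave 0.63 and 0.68. COL17A1, a hemidesmosome collagen named here after its values were seen, was at 0.86 for KD minus WT in normoxia, from 60.3 in KD normoxia and 26.1 in WT normoxia, the last below the floor. Of 14 genes that activate or inhibit integrins, 0 passed 2-fold, against the same shares of all genes, with medians of -0.10 in KD and -0.09 in WT. TLN1, the talin that binds beta tails, was at 0.49 in KD and 0.38 in WT, and FERMT2, a kindlin, at -0.25 in KD and -0.23 in WT.

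Of 20 focal adhesion genes, 16 were lower and 4 higher in the KD hypoxia pair (median -0.15), and 11 lower and 9 higher in the WT hypoxia pair (median -0.06). The shares of all genes that were lower were 47.5% in the KD pair and 47.6% in the WT pair. TNS2, a tensin that binds beta tails, was at -1.19 in KD and -0.71 in WT, from 163 in KD hypoxia and 181 in WT hypoxia, against 391 in KD normoxia and 306 in WT normoxia. Another TNS2 probe set gave -0.25 in KD and 0.09 in WT. PARVA, named after its values were seen, was at 1.17 for KD minus WT in hypoxia, from 52.6 in KD hypoxia and 14.4 in WT hypoxia, the last below the floor. ILK, the integrin-linked kinase, was at -0.62 in KD and -0.21 in WT. PTK2, the focal adhesion kinase, was at -0.38 in KD and -0.47 in WT, but 1 of its other probe sets was at 0.58 in WT. Of 16 genes of integrin endocytosis and recycling, RAB11FIP1 was the 1 past 2-fold, at 1.36 for KD minus WT in hypoxia. In that pair 0.519% of all genes were at least 2-fold higher. The second RAB11FIP1 probe set above the floor gave 0.39. RAB25, which returns integrins to the surface, was at 0.71 in that pair.

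Of 8 other laminin and matrix receptors, 0 passed 2-fold in any pair, where 0.325% to 0.997% of all genes did in each direction. DDR1, a collagen receptor kinase, read 673 in KD hypoxia and 686 in WT hypoxia, against 984 in KD normoxia and 987 in WT normoxia, or -0.54 and -0.51. Both arrays labelled hypoxia were below both labelled normoxia, as for ITGA6, at a smaller size. However, 2 dimmer DDR1 probe sets gave -0.34 and -0.43 in KD and -0.05 and 0.43 in WT. BCAM, a laminin receptor of the immunoglobulin family, was at -0.25 in KD and -0.66 in WT. The list medians, -0.22 in KD and -0.11 in WT, were below the all-gene medians of 0.02 and 0.01.

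**Figure D5:**
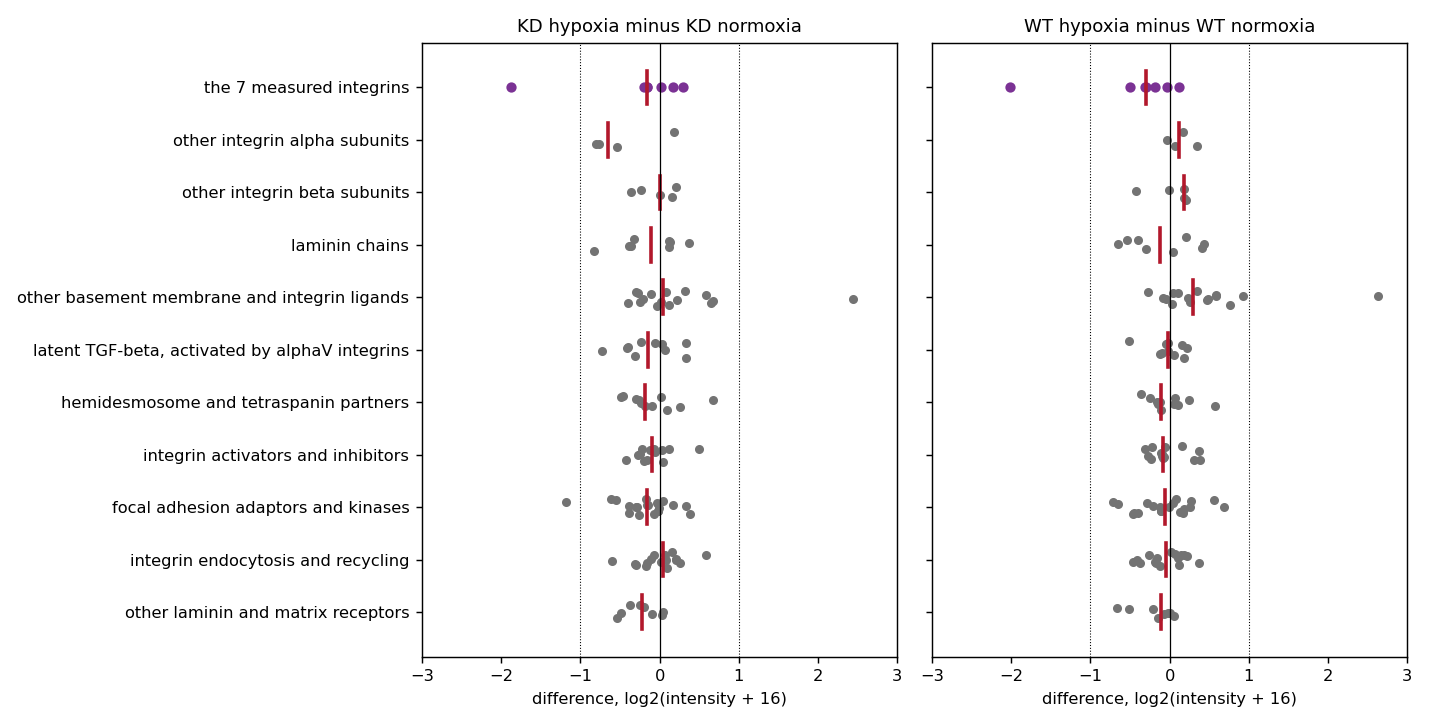
Log2 differences of the 7 measured integrins (purple) and of genes above the floor in 10 lists of related genes (grey), for labelled hypoxia minus normoxia in KD (left) and in WT (right); red bars are list medians and dotted lines mark 2-fold. ITGA6 lies outside the dotted lines in both panels, as do TGFBI in both and TNS2 in KD.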

How the data were processed

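The deposited table holds 1 intensity per probe set and array, on a linear scale; the sources used here do not give the authors' software, background correction or scaling. Per the labels' protocols, the biotinylated cRNA came from 100 ng total RNA. Of 42924 probe sets, 29254 had 1 gene symbol, 439 several and 13231 none in the platform annotation, and 27680 of the first matched, by gene ID, the RefSeq table of a German Shepherd assembly (UU_Cfam_GSD_1.0), used for names alone. The trimmed means per array ran from 310 to 315. Values were taken as log2(intensity + 16), with the brightest probe set per gene by mean log2 value and a floor at the 50th percentile of all values. No test was made, because each group has 1 array; counts use 2-fold. The members and lists were chosen with earlier results of these data known. Named genes are all members, HIF1A, ADM, PDK1, CA9 and VEGFA, and the 5 genes closest to the 2 members of widest range above the floor. List genes were picked from the 4 with the largest difference per comparison above the floor, and not all of these are named. Others are the markers CDH1 and PAX8 and those marked as named after their values were seen. Fold counting was run on simulated data with known folds, which checks the counting alone and says nothing of the spread between real arrays. Alternatives were 3 scalings (cyclic loess from limma 3.58.1 in R 4.3.3), pseudocounts of 1 and 64, the median over probe sets, 2 other floors and 2 other folds. Python 3.11.15 was used.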

Additional observations from a re-analysis of the deposited data

Results flagged for a closer look

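ITGB6 had opposite signs of the labelled hypoxia minus normoxia difference, 0.29 in KD and -0.30 in WT, and of KD minus WT, 0.37 in hypoxia and -0.22 in normoxia, so the difference of the responses was -0.59. A second ITGB6 probe set gave -0.59 and another 0.19. ITGB8 was at 0.02 in KD and -0.19 in WT for hypoxia minus normoxia, a difference of -0.20. ITGA6 was at 0.02 in hypoxia and -0.12 in normoxia for KD minus WT, a difference of -0.15. None of these opposite signs was tested, because no group was repeated.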

How the results depend on the processing

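No paired analysis was possible because each group has 1 array. Of 35 member differences, 0 changed sign under quantile normalization, centring on array medians, cyclic loess or a pseudocount of 1 or 64, and 9 did with the median over probe sets, which counts those below the floor: 4 of ITGB6, 2 of ITGAV, 2 of ITGB1 and 1 of ITGA6 (KD hypoxia minus WT hypoxia, -0.15). Over these scalings, the pseudocounts and the median over probe sets, ITGA6 stayed between -2.07 and -1.88 for WT hypoxia minus WT normoxia and between -2.05 and -1.74 for KD hypoxia minus KD normoxia. Of 210 such values 209 moved by less than 1.5-fold; the other was the ITGB6 difference of the responses, 0.19 with the median over probe sets in place of -0.59. Without the floor ITGA3 was counted as 1 member at least 2-fold higher for KD normoxia minus WT normoxia and 1 in the difference of the responses, both from values below the floor. At 1.5-fold the difference of the responses counted 1 member, ITGB6, against 3.44% of genes. At 3-fold the counts kept ITGA6. An alternative chosen after seeing the data exchanged the labels KD normoxia and WT hypoxia. It counted 0 members at least 2-fold lower in the hypoxia pairs and 1, ITGA6, in each KD minus WT pair, and ITGA6 stood at 0.0246 for KD hypoxia minus KD normoxia. Signal over background limits the 7 member probe sets below the floor in all arrays, that of ITGA3 among them.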
